A study of Mus musculus with 24 samples.

Results

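The genes described here are 10 genes by which endothelial cells, the lining cells of blood vessels, are recognised: *Cdh5*, *Cldn5* and *Pecam1* of cell adhesion, the guidance receptor gene *Robo4*, the receptor tyrosine kinase genes *Tie1*, *Tek*, *Kdr* and *Flt1*, and the transcription factor genes *Sox17* and *Sox18*. A gene was taken up through a region with deposited H3K4me3 counts that overlapped a transcription start site (TSS), the 5′ end of a transcript annotated in GENCODE M1 on the mouse genome build mm9. By this rule 8 of the 10 genes were taken up, each through 1 region, among 14806 genes with such a region in the whole series. The other 2 are given beside them and enter no count: the region of *Cldn5* begins 48 bp past its TSS, and the region of *Sox17* lies within the gene, 2678 bp from the nearest TSS. No further region lay within the bodies of these 10 genes.

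H3K4me3, a histone mark of active promoters, was measured in cerebral cortex of mice that carry histone H2B with a FLAG tag. In single ChIP-Seq, chromatin of the whole lysate was precipitated with an antibody against H3K4me3. In tChIP-Seq, chromatin was first precipitated with an antibody against FLAG, so that chromatin of the tagged cells was enriched, and then with the antibody against H3K4me3. The series holds 24 samples, of which the 12 with H3K4me3 counts were analysed, 3 libraries in each of 4 groups.

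All animals were of the C57BL/6 strain, and the tagged histone was expressed from the CAG promoter at the *Rosa26* locus. In *Rosa* H2B-FLAG mice (genotype Rosa CAG-H2B-FLAG), the floxed stop had been removed by a cross with *Vasa*-Cre, so that the tag was present throughout the body from development on. Their cortex came from adult brains, with no age in weeks stated. *Camk2a* H2B-FLAG mice (Rosa26 CAG-floxed-pA-H2B-FLAG/ CaMKCreERT2) were males heterozygous for both alleles, in which Cre is active in *Camk2a*-positive neurons after tamoxifen. They received 1 mg tamoxifen a day by 5 daily injections from 8 weeks of age and were killed a month later. For the Rosa line no tamoxifen and no sex are stated. Tamoxifen, Cre driver and duration of tag expression thus go with the line and cannot be told apart from the cells tagged. Each lysate pooled the tissue of 2 animals, so the spread between replicates is one between pools. The groups are called Rosa single, Rosa tChIP, Camk2a single and Camk2a tChIP below.

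Brain capillaries are formed by endothelial cells whose tight junctions seal the blood-brain barrier, and pericytes and astrocyte endfeet surround them. VEGF receptors and angiopoietin receptors of the Tie family pass growth and stability signals into these cells, VE-cadherin and PECAM-1 hold them together, and SoxF and ETS transcription factors maintain their gene programme. Endothelial cells are not neurons, and *Camk2a* is a gene of excitatory forebrain neurons.

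Libraries held from 6316125 to 8644574 counts in Rosa single, from 1457261 to 1828371 in Rosa tChIP, from 4063200 to 4233144 in Camk2a single and from 2709729 to 3049130 in Camk2a tChIP. Levels are given as CPM, counts scaled to a common library size with TMM factors over the 12 libraries. Differences are log2 fold changes from the quasi-likelihood test of edgeR over 17993 regions, and a region was called at an adjusted p under 0.01. In the Rosa line the authors found regions enriched or depleted in tChIP-Seq against single ChIP-Seq. They therefore based their later quantitative comparisons mainly on tChIP-Seq between the lines. Levels and differences set across the assays below include any such bias of the assay, which was not separated.

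Neuron-directed tChIP-Seq recovered less H3K4me3 at the endothelial genes than ubiquitous tChIP-Seq, whereas the lines overlapped in single ChIP-Seq. The summed level of the 8 regions was 313.6, 316.1 and 330.7 CPM in the libraries of Rosa tChIP. It was 101.0, 99.2 and 105.0 CPM in Camk2a tChIP. In single ChIP-Seq it was 247.5, 256.4 and 237.7 CPM in the Rosa line and 250.1, 243.4 and 249.2 CPM in the Camk2a line. All 3 libraries of Camk2a tChIP thus lay below the 9 others, and the single ChIP-Seq groups overlapped. Counts of tissue chromatin do not tell fewer cells of a type apart from less H3K4me3 per cell.

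In Camk2a tChIP against Rosa tChIP, 8 of the 8 regions were called lower, beside 14.6% of all regions lower and 17.0% higher. The median log2 fold change of the 8 regions was -2.17, with a range from -3.09 to -0.92, beside a median of 0.00 over all regions and -0.01 over the 13404 regions that overlap a TSS. With library totals in place of TMM, the share of higher regions among all calls moved from 53.9% to 43.7% and the median of all regions to -0.07. In Camk2a single against Rosa single, edgeR called 0 of the 8 regions, also at an unadjusted p under 0.05, beside 1.22% of all regions lower and 0.928% higher. DESeq2 likewise gave 0 calls and 0 regions at an unadjusted p under 0.05, with no adjusted p for any of the 8. The single ChIP-Seq differences ran from -0.10 at *Tek* to 0.11 at *Cdh5*, with a median of -0.03.

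**Figure D1:**
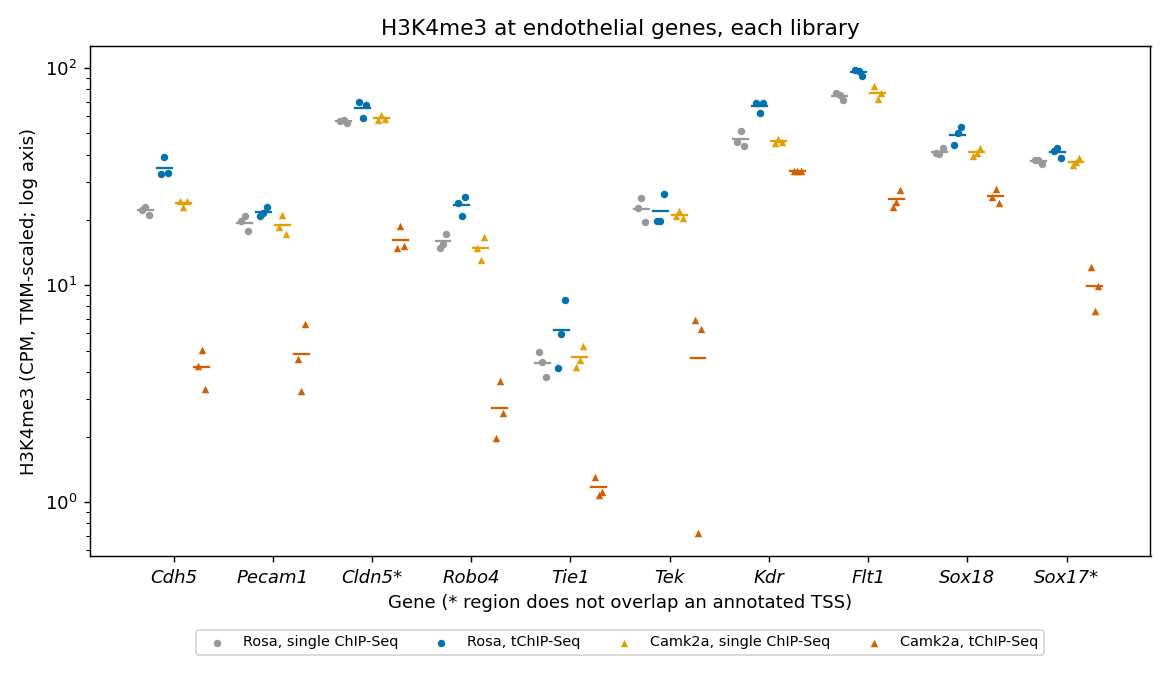
H3K4me3 level in CPM on a log axis at each gene, with a point for each of the 12 libraries and a line for the mean of each group. The Camk2a tChIP points lie below all other points of the same gene, and a single *Tek* library lies lowest, at 0.722 CPM.

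*Cdh5* encodes VE-cadherin, the cadherin of endothelial adherens junctions. Its region (chr8:106625423-106627516, mm9) had 32.4, 38.8 and 32.8 CPM in Rosa tChIP and 4.26, 5.05 and 3.32 CPM in Camk2a tChIP. In single ChIP-Seq it had 22.2, 23.0 and 21.1 CPM in the Rosa line and 24.4, 22.9 and 24.4 CPM in the Camk2a line. The tChIP-Seq libraries of the lines lay on either side of all single ChIP-Seq libraries, while the single ChIP-Seq groups overlapped. The log2 fold change was -3.01, so that a share of 12.4% of the Rosa tChIP level remained in Camk2a tChIP, and 0.339% of all regions had a lower value. No background level was estimated, so the shares that remain, here and below, are not corrected for background.

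*Pecam1* encodes PECAM-1, or CD31, an adhesion molecule of the endothelial surface. Its region (chr11:106574498-106576746) holds 5 of the 7 annotated TSSs of the gene but not the outermost, at 106611942, so it reports on a promoter inside the gene. The level was 20.9, 21.5 and 23.0 CPM in Rosa tChIP, and 4.59, 3.25 and 6.63 CPM in Camk2a tChIP. In single ChIP-Seq the level was 19.7, 20.9 and 17.7 CPM in the Rosa line and 18.5, 21.0 and 17.2 CPM in the Camk2a line. Only Camk2a tChIP stood apart, since the other 3 groups overlapped. Between the tChIP-Seq groups this is -2.16 on the log2 scale (SE 0.246, adjusted p = 3.84e-12).

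*Cldn5* encodes claudin-5, the main claudin of tight junctions at the blood-brain barrier. The region just past its TSS (chr16:18776988-18780635) had 69.9, 59.0 and 67.6 CPM in Rosa tChIP and 14.8, 18.8 and 15.1 CPM in Camk2a tChIP. Single ChIP-Seq gave 56.9, 57.8 and 56.1 CPM in the Rosa line and 57.8, 60.6 and 58.1 CPM in the Camk2a line. All Camk2a tChIP libraries were again low, and the highest Rosa and the lowest Camk2a library of single ChIP-Seq both read 57.8 CPM. The log2 fold change between the tChIP-Seq groups was -2.01 (SE 0.139, adjusted p = 5.31e-22). Other genes of adherens and tight junctions, which many cell types use, were listed separately, and of 11 such genes 5 were called lower and 1 higher in this comparison by edgeR and 3 lower and 1 higher by DESeq2, with a median of -0.16. Among them, *Tjp1*, which encodes ZO-1 and had the highest counts, changed by -0.25 (adjusted p = 0.00228). *F11r*, the gene of JAM-A, changed most, by -1.88 (adjusted p = 7e-16), and *Jam3* changed by 0.45 (adjusted p = 0.000459).

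*Robo4* encodes the Roundabout receptor of endothelial cells. Its region (chr9:37209538-37211241) holds 3 of 4 annotated TSSs and had 24.0, 20.9 and 25.6 CPM in Rosa tChIP and 1.97, 3.61 and 2.58 CPM in Camk2a tChIP. The latter rest on 6, 10 and 7 counts. In single ChIP-Seq it had 14.8, 15.4 and 17.3 CPM in the Rosa line and 14.8, 13.1 and 16.7 CPM in the Camk2a line. As at *Cdh5*, the Rosa tChIP libraries were the highest, the Camk2a tChIP libraries the lowest, and the single ChIP-Seq groups overlapped between them. A share of 11.8% of the Rosa tChIP level remained, and 0.239% of all regions had a lower log2 fold change.

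The other Roundabout receptors and their Slit ligands, which guide axons, were mostly higher in Camk2a tChIP than in Rosa tChIP. Of 6 genes, edgeR called 5 higher and 0 lower, with 0 lower also at an unadjusted p under 0.05 and by DESeq2, and their median was 1.11. *Slit1* changed by 1.72, *Robo3* by 1.39, *Slit3* by 1.30, *Slit2* by 0.92 and *Robo1* by 0.52 on the log2 scale. *Robo2* stood at 0.24 and was not called (adjusted p = 0.0106). *Slit2* was also called higher in Camk2a single against Rosa single (0.34, adjusted p = 1.67e-06), and its interaction was 0.58 (adjusted p = 1.22e-08). *Robo3* lies on the same chromosome as *Robo4* (chr9:37239716-37241106), and its mean level was 18.2 ± 2.94 CPM in Rosa tChIP and 46.8 ± 2.91 CPM in Camk2a tChIP (SD, n = 3 each).

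*Tie1* and *Tek* encode the Tie receptors, of which TEK (TIE2) binds angiopoietins and TIE1 modulates its signal. The *Tie1* region (chr4:118161903-118162591) is the narrowest of the 10, 689 bp, and holds 2 of the 3 TSSs of the gene. *Tie1* had 4.17, 5.96 and 8.53 CPM in Rosa tChIP from 8, 10 and 13 counts, and 1.31, 1.08 and 1.11 CPM in Camk2a tChIP from 4, 3 and 3 counts. Its single ChIP-Seq values were 4.92, 4.43 and 3.76 CPM in the Rosa line and 4.18, 4.53 and 5.23 CPM in the Camk2a line. The Camk2a tChIP libraries lay below all others, and the remaining groups overlapped. With so few counts the fold change was less precise than for the other genes, at -2.31 (SE 0.476, adjusted p = 3.26e-05).

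The *Tek* region (chr4:94405656-94408346) had 19.8, 19.7 and 26.2 CPM in Rosa tChIP and 6.89, 0.722 and 6.26 CPM in Camk2a tChIP. In single ChIP-Seq, *Tek* had 22.6, 25.1 and 19.5 CPM in the Rosa line and 20.9, 22.0 and 20.4 CPM in the Camk2a line. The replicates of Camk2a tChIP were unlike each other, because replicate 2 had 2 counts (exact Poisson 95% interval 0.242 to 7.22) where the others had 21 and 17, yet all were below every other library. The log2 fold change between the tChIP-Seq groups was -2.19 (SE 0.272, adjusted p = 8.37e-11), and without replicate 2 it was -1.71. The Wald test of DESeq2 gave -2.24 with an adjusted p of 0.0108, which is not a call, and over the alternatives the adjusted p of *Tek* ran from 4.75e-15 to 0.0108.

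*Kdr* encodes VEGFR2, the main signalling receptor for VEGF-A, and *Flt1* encodes VEGFR1, which binds the same ligand and limits its signal. *Kdr* (chr5:76371602-76375111) had 69.4, 62.0 and 68.9 CPM in Rosa tChIP and 33.5, 33.6 and 33.5 CPM in Camk2a tChIP. Its single ChIP-Seq values were 45.6, 51.4 and 43.8 CPM in the Rosa line and 45.0, 47.2 and 45.9 CPM in the Camk2a line. The tChIP-Seq groups lay above and below all single ChIP-Seq libraries, but in fold terms the gap was smaller than at every other gene of the set except *Sox18*. The log2 fold change of *Kdr* was -0.99 (SE 0.115, adjusted p = 8.45e-12), so that 50.4% of the Rosa tChIP level remained.

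*Flt1* (chr5:148531795-148538375), the widest region of the set at 6581 bp, had 98.6, 97.2 and 91.9 CPM in Rosa tChIP and 23.0, 24.2 and 27.6 CPM in Camk2a tChIP. Single ChIP-Seq gave 77.1, 75.6 and 71.7 CPM in the Rosa line and 83.0, 71.8 and 76.5 CPM in the Camk2a line. Every Rosa tChIP library was above and every Camk2a tChIP library below the single ChIP-Seq libraries. The log2 fold change of *Flt1* was -1.94 (SE 0.112, adjusted p = 2.94e-26), with 95% limits of -2.17 and -1.72, whereas those of *Kdr* were -1.22 and -0.76. The difference between the fold changes of the 2 receptor genes was not tested.

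Of 8 genes of VEGF and angiopoietin ligands, 4 had a region at a TSS, of which 1 was called lower and 1 higher between the tChIP-Seq groups, with a median of -0.18, whereas DESeq2 called 0 of the 4, with 1 lower and 1 higher at an unadjusted p under 0.05. *Vegfa*, whose product astrocytes and other brain cells supply, changed by -0.22 (adjusted p = 0.00162) and *Vegfc* by 0.33 (adjusted p = 0.00442), but with library totals *Vegfc* stood at 0.26 and was not called. *Vegfb* stood at -0.15 and *Angpt1* at -0.25, and neither was called. With any TSS within 1000 bp, a rule chosen after seeing the data, *Angpt2*, an angiopoietin made by endothelial cells, was also measured, and it changed by -1.83 (adjusted p = 1.1e-05). *Pgf*, measured by the same rule, stood at -0.72 and was not called. The co-receptor genes *Nrp1* and *Nrp2*, which neurons also express, stood at 0.07 and -0.06 and were not called either (adjusted p = 0.41 and 0.448), also not by DESeq2, and neither had an unadjusted p under 0.05 by either tool. With library totals *Nrp1* stood at 0.00.

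*Sox18* and *Sox17* encode SoxF transcription factors, which act in arterial and lymphatic differentiation and in vascular integrity. *Sox18* (chr2:181403691-181406587) had 44.4, 50.1 and 53.8 CPM in Rosa tChIP and 25.6, 27.8 and 23.9 CPM in Camk2a tChIP. Its single ChIP-Seq values were 40.7, 40.4 and 42.9 CPM in the Rosa line and 39.4, 40.8 and 42.9 CPM in the Camk2a line. Here too all Camk2a tChIP libraries were the lowest, but the fold change was the smallest of the set. It was -0.92 on the log2 scale (SE 0.135, adjusted p = 1.31e-08), and 52.8% of the Rosa tChIP level remained.

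*Sox17* was measured inside the gene (chr1:4481270-4483766), with 41.7, 42.9 and 38.7 CPM in Rosa tChIP and 12.1, 7.58 and 9.95 CPM in Camk2a tChIP. Single ChIP-Seq gave 37.9, 37.8 and 36.3 CPM in the Rosa line and 35.7, 37.0 and 38.4 CPM in the Camk2a line. Only the Camk2a tChIP libraries were far from the others, with -2.04 on the log2 scale (SE 0.176, adjusted p = 2.99e-17).

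**Figure D2:**
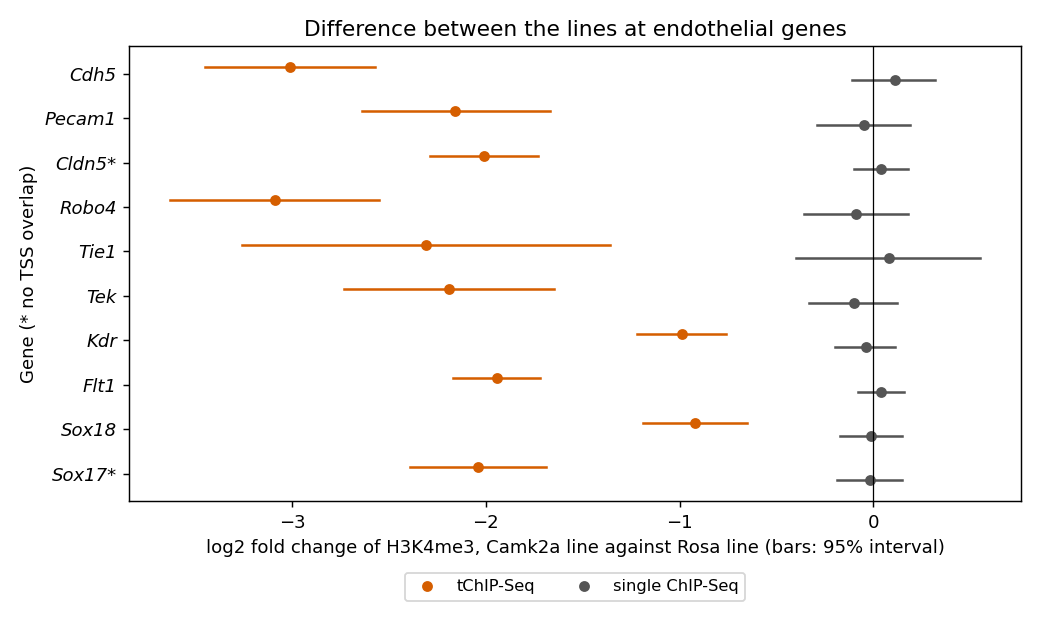
Log2 fold change of H3K4me3 in the Camk2a line against the Rosa line at each gene, separately for tChIP-Seq and single ChIP-Seq, with 95% intervals of the edgeR fit as bars. The tChIP-Seq points run from -3.09 at *Robo4* to -0.92 at *Sox18*, and the single ChIP-Seq points lie near 0.

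The difference between the tChIP-Seq and the single ChIP-Seq effect of the line was tested as an interaction over all 12 libraries. It was called lower for 8 of the 8 regions, beside 13.2% of all regions lower and 13.7% higher, with a median of -2.11 against 0.00 over all regions. With library totals, the share of higher regions among all interaction calls moved from 50.9% to 38.9% and the median of all regions to -0.10. The values at *Pecam1*, *Tie1*, *Tek* and *Flt1* were -2.12, -2.42, -2.10 and -1.99. Those at *Kdr* and *Sox18* were the smallest, -0.96 (SE 0.142, adjusted p = 1.09e-09) and -0.92 (SE 0.159, adjusted p = 1.68e-07).

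Within the Rosa line, where the tag is ubiquitous, tChIP-Seq gave higher values than single ChIP-Seq at 4 of the 8 regions, beside 22.5% of all regions lower and 24.7% higher. The called genes were *Cdh5* (0.65, adjusted p = 6.35e-06), *Robo4* (0.58, adjusted p = 0.000891), *Kdr* (0.51, adjusted p = 6.98e-07) and *Flt1* (0.37, adjusted p = 8.3e-06). *Robo4* was not called without Rosa tChIP replicate 1 (0.56, adjusted p = 0.0119) or replicate 3 (0.52, adjusted p = 0.013), and over its alternatives the adjusted p ran from 0.000103 to 0.013. *Tie1* stood at 0.47, *Sox18* at 0.26, *Pecam1* at 0.16 and *Tek* at -0.05, and none of these passed the threshold. The median of the 8 regions was 0.42, beside 0.00 over all regions and -0.09 over those at a TSS. Genes of other lists differed in this comparison too. Called higher were 24 of the 47 other endothelial genes (1 lower), 5 of 6 mural cell genes, 4 of 5 fibroblast genes, 9 of 11 astrocyte genes (1 lower) and 3 of 8 inhibitory neuron genes, with medians of 0.32, 1.03, 0.95, 0.56 and 0.27. Called lower were 10 of 11 excitatory neuron genes, 4 of 9 oligodendrocyte lineage genes and 7 of 12 widely expressed genes, with medians of -0.76, -0.30 and -0.28, and with library totals 10, 2 and 5 of them. With library totals, the share of higher regions among all calls moved from 52.3% to 67.7% and the median of all regions to 0.10, and *Sox18* and *Cldn5*, at 0.26 and 0.21 with TMM, were called at 0.36 and 0.31 (adjusted p = 0.0025 and 0.00221). Over their alternatives, the adjusted p ran from 0.000707 to 0.181 for *Sox18* and from 0.000481 to 0.261 for *Cldn5*.

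Within the Camk2a line, tChIP-Seq gave lower values than single ChIP-Seq at 8 of the 8 regions, beside 22.6% of all regions lower and 25.3% higher. The differences were -2.49 at *Cdh5*, -2.45 at *Robo4*, -2.16 at *Tek*, -1.97 at *Pecam1*, -1.96 at *Tie1*, -1.63 at *Flt1*, -0.67 at *Sox18* and -0.46 at *Kdr*. That of *Kdr* had an SE of 0.106 and an adjusted p of 7.86e-05, and 72.8% of its single ChIP-Seq level remained. The same comparison gave -1.86 at *Cldn5* and -1.89 at *Sox17*. Beside them, 39 of the 47 other endothelial genes were called lower and 3 higher, 3 of 6 mural cell genes lower and 1 higher, 2 of 5 fibroblast genes and 9 of 11 astrocyte genes lower, 8 of 9 oligodendrocyte lineage genes lower and 1 higher, 4 of 8 inhibitory neuron genes lower and 1 higher, and 9 of 11 excitatory neuron genes higher and 1 lower. Of the 12 widely expressed genes, edgeR and DESeq2 each called 4 lower and 0 higher, with 0 higher at an unadjusted p under 0.05 by either tool, and their median was -0.20, with *Actb* at -0.53 (adjusted p = 3.48e-14) and *Gapdh* at -0.33 (adjusted p = 2.01e-08). Some genes were called higher against single ChIP-Seq in both lines. *Kcnj8* of the mural cell genes stood at 1.34 in the Rosa line and 1.29 in the Camk2a line. *Abcb1a* of the other endothelial genes stood at 1.42 and 1.37, and *Pvalb* of the inhibitory neuron genes at 1.85 and 1.33. Their single ChIP-Seq means were low, at 6.85 and 8.23, 6.5 and 7.47, and 2.89 and 3.99 CPM. Whether regions of low level rise with the FLAG step was not tested. The comparisons within the lines share the tChIP-Seq libraries with the comparison between the lines, so these values are not independent of those above.

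Since fold changes differed, the make-up of the summed level shifted between the groups. *Kdr* held 20.9% of the summed CPM of the 8 regions in Rosa tChIP and 32.9% in Camk2a tChIP, and *Sox18* held 15.4% and 25.3%. *Cdh5* made up 10.8% and 4.14% of the sum, *Robo4* 7.34% and 2.67%, and *Flt1* 30.0% and 24.5%. In single ChIP-Seq the shares of *Kdr* were 19.0% in the Rosa line and 18.6% in the Camk2a line, and those of *Sox18* were 16.7% and 16.6%.

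Levels of different genes were compared as mean CPM per kb of region. In Rosa single, the level per kb ran from 15.6 ± 0.229 CPM per kb at *Cldn5*, 15.0 ± 0.361 at *Sox17*, 14.3 ± 0.46 at *Sox18* and 13.4 ± 1.13 at *Kdr* down to 6.34 ± 0.846 at *Tie1* (SD, n = 3 each). Between them lay *Flt1* at 11.4 ± 0.425, *Cdh5* at 10.5 ± 0.447, *Robo4* at 9.30 ± 0.783, *Pecam1* at 8.64 ± 0.734 and *Tek* at 8.32 ± 1.05 CPM per kb. In this order *Sox18* and *Kdr*, *Robo4* and *Pecam1*, and *Pecam1* and *Tek* did not differ beyond an SD. The level per kb was low among promoters already in whole tissue, since 20.8% of TSS regions were lower per kb than *Cldn5* and 4.39% were lower than *Tie1*.

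In Camk2a tChIP, *Kdr* at 9.55 ± 0.0138 and *Sox18* at 8.90 ± 0.666 CPM per kb led the order of levels. *Cldn5*, *Sox17* and *Flt1* followed at 4.44 ± 0.608, 3.96 ± 0.913 and 3.79 ± 0.368 CPM per kb. The lowest levels were those of *Pecam1* at 2.14 ± 0.757, *Cdh5* at 2.01 ± 0.415, *Tek* at 1.72 ± 1.26, *Tie1* at 1.69 ± 0.184 and *Robo4* at 1.60 ± 0.486 CPM per kb. Neighbours within each of these 3 sets did not differ beyond an SD. Per kb, 0.246% of TSS regions were lower than *Robo4*, 0.642% were lower than *Cdh5* and 6.92% were lower than *Kdr*. These levels too were not corrected for background.

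The regions also differ in sequence. *Tek*, *Tie1*, *Cdh5*, *Pecam1* and *Robo4* had 1.00, 1.02, 1.19, 1.24 and 1.53 CpG per 100 bp, *Kdr*, *Flt1* and *Sox18* had 3.48, 3.53 and 5.52, and the median over regions at a TSS was 4.36. The regions of *Cldn5* and *Sox17* had 2.66 and 6.89. Of the 8 regions, the 5 poorest in CpG had a log2 fold change of -2.16 or below in Camk2a tChIP against Rosa tChIP, whereas *Sox17*, the richest of all 10 genes, stood at -2.04. Across the 8 regions, as a description of regions measured in the same libraries, Pearson's r between CpG per 100 bp and this log2 fold change was 0.801 and Spearman's rho was 0.643, beside -0.0747 and -0.133 across the 13404 regions at a TSS. With *Cldn5* and *Sox17* taken in, after the values were seen, Pearson's r was 0.584 and Spearman's rho 0.697 for CpG. For region width the values were 0.379 and 0.81 across the 8 regions, beside 0.236 and 0.261.

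Promoter windows of RefSeq on GRCm38.p6, each of 300 bases, were at hand for 6 of the 10 genes, and not for *Cdh5*, *Pecam1*, *Sox17* and *Sox18*. Those of the guidance receptor, of TEK and of the VEGF receptors are shown because these genes differ in their log2 fold change, from -3.09 at *Robo4* to -0.99 at *Kdr*, and in CpG content. They are written 5′ to 3′ on the strand of the gene, with each CpG in capitals. The windows are chr9:37401722-37402021 on the plus strand for *Robo4*, chr4:94739039-94739338 on the plus strand for *Tek*, chr5:75978406-75978705 on the minus strand for *Kdr* and chr5:147725962-147726261 on the minus strand for *Flt1*. Of their bases, 180 lie before the outermost RefSeq start of *Robo4* and 47 before that of *Tek*. The windows of *Kdr* and *Flt1* lie wholly past the outermost RefSeq start of the gene. Their place relative to the GENCODE M1 starts was not examined.
Robo4: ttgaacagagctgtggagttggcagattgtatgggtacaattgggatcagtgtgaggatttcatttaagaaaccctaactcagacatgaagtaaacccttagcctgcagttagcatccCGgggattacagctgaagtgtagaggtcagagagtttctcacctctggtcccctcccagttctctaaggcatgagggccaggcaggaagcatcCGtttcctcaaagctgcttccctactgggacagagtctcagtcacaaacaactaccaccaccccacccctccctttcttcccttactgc
Tek: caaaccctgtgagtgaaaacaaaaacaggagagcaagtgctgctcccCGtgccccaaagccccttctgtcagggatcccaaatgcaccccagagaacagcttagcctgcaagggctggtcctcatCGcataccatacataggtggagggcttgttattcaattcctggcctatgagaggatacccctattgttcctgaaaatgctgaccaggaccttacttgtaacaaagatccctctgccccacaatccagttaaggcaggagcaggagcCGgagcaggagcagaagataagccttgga
Kdr: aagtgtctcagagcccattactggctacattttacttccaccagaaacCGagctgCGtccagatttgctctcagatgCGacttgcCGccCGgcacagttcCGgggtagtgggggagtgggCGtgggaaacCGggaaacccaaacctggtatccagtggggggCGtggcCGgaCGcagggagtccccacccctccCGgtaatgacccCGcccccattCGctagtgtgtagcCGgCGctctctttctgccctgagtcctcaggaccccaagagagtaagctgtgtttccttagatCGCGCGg
Flt1: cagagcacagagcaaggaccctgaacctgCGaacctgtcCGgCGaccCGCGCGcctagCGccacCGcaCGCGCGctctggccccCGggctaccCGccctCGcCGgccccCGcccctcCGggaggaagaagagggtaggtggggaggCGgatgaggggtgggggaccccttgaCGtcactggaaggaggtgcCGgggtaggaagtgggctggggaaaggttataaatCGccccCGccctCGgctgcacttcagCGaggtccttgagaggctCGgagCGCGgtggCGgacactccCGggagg
*Robo4* had 2 CpGs and *Tek* 3, fewer than in most windows, since 14.1% and 23.3% of 32851 windows held fewer and the median was 7. *Kdr* had 19 and *Flt1* 29, with 71.9% and 87.1% of windows holding fewer. *Tie1* and *Cldn5*, not shown, had 7 and 12. Of the members shown, *Flt1* thus had the most CpGs in its window but a log2 fold change between those of *Tek* and *Kdr*.

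The 6 windows were searched on both strands for short cores of motifs of endothelial transcription factors and for the TATA box. The ETS core AGGAAG occurred once in *Robo4* and 2 times each in *Tie1* and *Flt1*, and 35.4% of all windows held it. The ETS core CGGAAG occurred in *Tie1* and in 16.9% of all windows. The SOX core ATTGTT and the GATA core AGATAA were each found in *Tek*, and 10.7% and 11.2% of all windows held them. The letters TATAAA were found in *Flt1* and in 13.6% of all windows. No motif contains another, and matches of such short motifs describe letters in a window and no binding.

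Of 58 other endothelial genes listed for comparison, 47 had a region at a TSS, and in Camk2a tChIP against Rosa tChIP 40 of these were called lower and 2 higher, with a median of -1.71. The lowest were *Cd93* (-3.02), *Eng* (-2.81), the ETS factor gene *Erg* (-2.74), the transporter gene *Slco1c1* (-2.72) and *Tmem204* (-2.65). The highest were *Cd34* (0.53) and *Efnb2* (0.42), both called, and *Abcb1a* (0.15), *Slc16a1* (-0.02) and *Notch4* (-0.05), which were not. The summed level of the 47 genes was 3060.8, 3136.5 and 3048.2 CPM in Rosa tChIP and 1577.7, 1583.4 and 1580.6 CPM in Camk2a tChIP, and *Efnb2* was the most abundant. In single ChIP-Seq it was 2553.9, 2588.4 and 2541.2 CPM in the Rosa line and 2470.4, 2496.0 and 2511.4 CPM in the Camk2a line, so that the lines did not overlap here. With CPM from library totals they did, at 2481.8, 2502.6 and 2459.1 against 2432.5, 2471.2 and 2480.1. In Camk2a single against Rosa single, edgeR called 0 of the 47, with 4 at an unadjusted p under 0.05, and their median was -0.04. DESeq2 gave an adjusted p for only 7 of the 47 there and called 0 of these, with 1 of the 47 at an unadjusted p under 0.05.

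Genes that mark the other cells of the vessel wall and of cortex were given the same count, since their chromatin is in the same lysates. Of 14 mural cell genes, 6 had a region at a TSS, 5 were called lower and the median was -1.97. Their summed level was 224.4, 210.5 and 217.2 CPM in Rosa tChIP and 62.3, 60.6 and 63.7 CPM in Camk2a tChIP. *Pdgfrb*, the PDGF receptor gene of pericytes, had a log2 fold change of -2.67. Its mean level was 82.1 CPM in Rosa tChIP and 12.7 CPM in Camk2a tChIP. *Kcnj8*, at 0.22, was not called, and its 20.2 CPM in Camk2a tChIP lay above the level of *Pdgfrb* there. With any TSS within 1000 bp, a rule chosen after seeing the data, 9 mural cell genes were measured, of which 6 were called lower and 1 higher, with a median of -1.96. The genes added were *Tbx18* (-2.05, adjusted p = 1.36e-16), *Vtn*, called higher (0.41, adjusted p = 9.65e-05), and *Myh11*, which stood at -0.25 and was not called. The sum was then 345.4, 335.8 and 330.0 CPM in Rosa tChIP and 173.5, 172.9 and 176.1 CPM in Camk2a tChIP, so that the ratio of the sums depends on the rule. Of 8 fibroblast genes, 5 had a region and 3 were called lower, with a median of -0.80. Their summed level was 100.2, 110.3 and 119.4 CPM in Rosa tChIP and 48.9, 44.7 and 48.3 CPM in Camk2a tChIP. *Foxc1* stood at -0.80, with means of 35.7 CPM in Rosa tChIP and 20.1 CPM in Camk2a tChIP. *Foxc2* stood at -2.81, with 39.8 and 5.66 CPM. Of the 12 microglia and macrophage genes, 4 had a region with a TSS within 1000 bp and none had one overlapping a TSS. Of these 4, *Csf1r* (-1.59) and *Tmem119* (-1.97) were called lower and *Trem2* (-1.14) and *C1qa* (-1.53) were not, and their sum was 14.1, 16.1 and 20.3 CPM in Rosa tChIP and 5.58, 4.69 and 4.42 CPM in Camk2a tChIP.

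Of 12 astrocyte genes, 11 had a region at a TSS, 9 were called lower and 1 higher, and the median was -1.60. The lowest was *Aldh1l1* at -2.86 (adjusted p = 1.48e-15). Their summed level was 713.3, 765.2 and 771.6 CPM in Rosa tChIP and 414.0, 416.4 and 411.1 CPM in Camk2a tChIP, and the most abundant, the glutamate transporter gene *Slc1a2*, was the one called higher (0.38). Of 12 oligodendrocyte lineage genes, 9 had a region, 8 were called lower and 1, *Mbp* (1.18), higher, with a median of -1.75. Their sum was 413.8, 416.3 and 429.1 CPM in Rosa tChIP and 233.6, 237.8 and 242.0 CPM in Camk2a tChIP. *Cnp* stood at -1.34, with means of 100.6 CPM in Rosa tChIP and 39.7 CPM in Camk2a tChIP. *Mbp* had 50.8 and 114.5 CPM and so held more of the Camk2a tChIP sum than *Cnp*. Each listed gene was read through its TSS region with the highest total count, for *Mbp* chr18:82643953-82646548. Such a region need not hold every TSS of its gene. Of 12 inhibitory neuron genes, 8 had a region and 6 were called lower (7 with library totals and 5 by DESeq2), with a median of -1.0. The sum of the 8 was 205.6, 212.9 and 194.9 CPM in Rosa tChIP and 113.8, 108.3 and 109.8 CPM in Camk2a tChIP. *Dlx5* stood at -0.56, with means of 33.9 CPM in Rosa tChIP and 22.8 CPM in Camk2a tChIP. *Dlx2*, the lowest at -1.30, had 35.2 and 14.3 CPM. Of 12 excitatory neuron genes, 11 had a region and 10 were called higher, with a median of 1.33. The sum of the 11 was 782.7, 764.6 and 716.4 CPM in Rosa tChIP and 1717.4, 1781.6 and 1805.3 CPM in Camk2a tChIP. *Camk2a* stood at 2.27, with means of 70.0 CPM in Rosa tChIP and 339.3 CPM in Camk2a tChIP. *Cux2*, which was not called (0.14), had 98.8 and 108.3 CPM. Of 12 widely expressed genes, 1 was called lower and 1 higher, the median was 0.00, and the most abundant, *Gapdh*, stood at 0.00. With library totals, and also by DESeq2, 1 of these was called lower and 0 higher, with 1 higher at an unadjusted p under 0.05 by DESeq2. With library totals the median and *Gapdh* both stood at -0.07.

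In Camk2a single against Rosa single, without the FLAG step, some of these lists held called genes as well. *Camk2a* was called higher, at 174.0 ± 2.42 CPM in the Rosa line and 249.8 ± 12.1 CPM in the Camk2a line (SD, n = 3 each; log2 fold change 0.52, adjusted p = 3.74e-27), as the only one of the 11 excitatory neuron genes. Its interaction was 1.74 (adjusted p = 1.33e-56). Of the 9 oligodendrocyte lineage genes, edgeR called 3 lower, among them *Cnp* (-0.19, adjusted p = 0.00877), against 1 with library totals, where *Cnp* stood at -0.16 and was not called. DESeq2 gave an adjusted p for only 1 of the 9 and called 0, with 4 at an unadjusted p under 0.05. Among the mural cell, fibroblast, astrocyte and inhibitory neuron genes, edgeR called 0, also at an unadjusted p under 0.05. DESeq2 likewise had 0 there by either measure, with an adjusted p for 2 astrocyte genes and no others. The summed level of the mural cell genes was 110.2, 108.3 and 107.3 CPM in the Rosa line and 115.9, 111.0 and 112.4 CPM in the Camk2a line, that of the oligodendrocyte lineage genes 508.3, 506.2 and 512.6 against 461.8, 464.3 and 458.3 CPM, and that of the excitatory neuron genes 1315.3, 1325.8 and 1344.0 against 1414.1, 1376.7 and 1392.6 CPM. The lines did not overlap in these 3 sums, also with library totals, whereas they overlapped in those of the fibroblast, astrocyte and inhibitory neuron genes. The mean excitatory neuron sum was 1328.4 CPM in the Rosa line and 1394.5 CPM in the Camk2a line, a smaller gap than that at *Camk2a* alone. The median log2 fold change of the 11 genes was -0.02. With any TSS within 1000 bp, the mural cell sums overlapped, at 203.5, 206.0 and 196.5 against 202.3, 211.6 and 208.3 CPM. By the 1000 bp rule, 45 of 54 other endothelial genes, 10 of 12 astrocyte genes, 10 of 11 oligodendrocyte lineage genes and 7 of 9 inhibitory neuron genes were called lower in Camk2a tChIP against Rosa tChIP, with medians of -1.72, -1.68, -1.75 and -0.97, while 2, 1 and 1 genes of the first 3 of these lists were called higher. The part of these other cell types in the values of the endothelial genes was not tested.

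The regions most like the set in their pattern were sought among 13123 other TSS regions with a mean of at least 5 CPM. Likeness was the root mean square difference, over the 12 libraries, between a region's centred log2 CPM and the median centred profile of the 8 regions, and its median over these regions was 0.758. The 10 nearest were *Slfn5* (0.0967), *Cdc42ep1* (0.12), *AC102525.1* (0.127), *Epas1* (0.129), the region shared by *Fam181b* and *Gm9934* (0.13), *Inpp5d* (0.142), *Arhgap23* (0.147), *Gbp5* (0.149), *Sparc* (0.149) and *Csrp1* (0.15). *Slfn5* had 19.7 ± 1.07 CPM in Rosa tChIP and 5.14 ± 0.705 CPM in Camk2a tChIP, and *Epas1*, which encodes a hypoxia-inducible factor, had 141.3 ± 5.79 and 43.3 ± 3.23 CPM (SD, n = 3 each). Of the 8 members, *Flt1* lay nearest to their common profile (0.0948), followed by *Tie1* (0.186) and *Pecam1* (0.203), and *Tek* lay farthest from it (0.655). The place of *Tek* rests on replicate 2 of Camk2a tChIP, since without this library, left out after the values were seen, *Tek* lay at 0.169 and *Robo4* was farthest, at 0.445. *Flt1* was then still nearest (0.0721), but *Pecam1* (0.135) and *Tek* came before *Tie1* (0.213).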

How the data were processed

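Single ChIP-Seq and tChIP-Seq libraries of H3K4me3 from the cortex of both mouse lines were used, 3 per group. The values are whole-number read counts per region, deposited without normalization. To make them, the authors trimmed reads (FASTX Toolkit), discarded repeats (Bowtie2), aligned to mm9 (Bowtie), dropped duplicates (samtools), kept MACS peaks reproducible in triplicate and counted reads in bedtools. The submitters' processing notes name Bowtie 1.0.0, Bowtie2 2.1.0, SAMtools 0.1.19 and bedtools 2.17.0. Total counts per library ranged from 1457261 to 8644574, and the Poisson interval of a count covers counting error only, while limits of fold changes come from the edgeR fit with its dispersion between replicates.

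Counts of all 17993 regions were fitted in edgeR 4.0.16 (R 4.3.3) with TMM, glmQLFit and glmQLFTest, with no filter and no covariate and Benjamini-Hochberg adjustment over all regions at 0.01. Each of the 4 comparisons of 2 groups used its 6 libraries, and the interaction used all 12. The steps were run on simulated counts in which 200 of the 17993 regions were changed. Between the tChIP-Seq groups 2620 regions were called lower alone, so that run does not test the steps at the share of changed regions seen here. Alternatives were DESeq2 1.42.0 or its size factors, library totals, low-count filters, thresholds of 0.05 and 0.001, a fit of all 12 libraries, a replicate block, TSSs within 1000 bp and leaving out each library. Sequence and list values were computed in Python 3.11.15 (pandas 2.3.3, numpy 2.4.6, scipy 1.17.1, matplotlib 3.10.9 for figures).

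The genes named are every member; the 5 lowest and the 5 highest of the other endothelial genes; every ligand, co-receptor and Robo family gene with a region; the most abundant, lowest or highest genes of the other lists; and the 10 regions of most like pattern. *Angpt2*, *Pgf*, *Tbx18*, *Vtn*, *Myh11* and the microglia genes named fall outside this rule and were chosen after their values were seen. Counts and sums of the lists under other scalings and counts by DESeq2 were added after the main counts were seen. Members and lists were chosen with earlier results of these data known. Input and FLAG libraries were not analysed here.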

Additional observations from a re-analysis of the deposited data

Results flagged for a closer look

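At all 10 genes the effect of the mouse line differed between tChIP-Seq and single ChIP-Seq, by the interaction term of edgeR over 12 libraries at an adjusted p under 0.01. The difference of the log2 fold changes was -3.13 at *Cdh5*, -3.02 at *Robo4*, -2.42 at *Tie1*, -2.12 at *Pecam1* and -2.10 at *Tek*. It was -2.07 at *Cldn5*, -2.03 at *Sox17*, -1.99 at *Flt1*, -0.96 at *Kdr* and -0.92 at *Sox18*. Groups of 3 libraries were not tested for outliers, which includes the low *Tek* library of Camk2a tChIP.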

How the results depend on the processing

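In tChIP-Seq, the log2 fold changes of the 8 regions between the lines were negative under every alternative run, from -3.34 at *Robo4* to -0.86 at *Sox18*. Leaving out any library kept 8 regions called lower in this comparison, in the interaction and in Camk2a tChIP against single ChIP-Seq. *Tek* was not called by DESeq2 (-2.24). Without the 40% of regions with the lowest counts, only *Flt1*, *Kdr* and *Sox18* remained to be tested, and 3 were called lower in each of those comparisons. The edgeR filter on low counts left out *Tie1* in the comparison between the tChIP-Seq groups.

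In Rosa tChIP against single ChIP-Seq, between 3 and 4 regions were called higher when a library was left out. *Sox18* and *Cldn5* gained a call without the 40% lowest regions, at 0.41 and 0.36. *Tek* turned from -0.05 to 0.05 with library totals, and ranged from -0.19 to 0.05 when a library was left out, with 0.01 and 0.02 among the values.

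In single ChIP-Seq between the lines, where none of the genes of the set was called, *Sox17* and *Sox18* turned to 0.01 and 0.02 with library totals and to 0.02 and 0.03 without the 40% lowest regions. Leaving out a library, *Pecam1* ranged from -0.14 to 0.01, *Kdr* from -0.08 to 0.04, *Tie1* from -0.02 to 0.16, *Sox18* from -0.04 to 0.02, *Flt1* from -0.02 to 0.09 and *Sox17* from -0.05 to 0.01. The causes were not tested. With library totals the share of higher regions among all calls moved from 43.3% to 77.3% in this comparison.

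Within a line, the sample titles number single ChIP-Seq and tChIP-Seq libraries alike, so a number may mark a shared lysate, which the labels do not state. The comparisons within the lines and the interaction may thus share lysates. Deviations from group means correlated between -0.019 and 0.0443 in the 18 pairs of libraries with the same number, of which 6 lie within a line, and not every library correlated best with its own number. With the number as a replicate block, 8 regions were called lower between the tChIP-Seq groups, in the interaction and in Camk2a tChIP against single ChIP-Seq, 4 were called higher in Rosa tChIP against single ChIP-Seq, *Cdh5* stood at -3.01 between the tChIP-Seq groups, and no call of a member changed. The SE was largest at *Tie1* in each comparison.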
